A study of Mus musculus with 12 samples.

Results

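The epithelium of the mammary gland holds luminal and basal cells, and 10 genes that mark these layers are described here across 12 tumors of PyMT mice. They were taken by their symbols from the 21960 genes listed for every tumor. The 6 luminal genes are Krt7, Krt8, Krt18, Krt19, Epcam and Cdh1, and the 4 basal genes are Krt5, Krt14, Krt17 and Trp63. All 10 were found, and all 10 reached 1 TPM (a level per length of transcript) in at least 3 tumors of every fit. RNA of whole snap-frozen tumors was sequenced in bulk, with 3 tumors in each of 4 treatment groups. The mice were C57BL/6 females whose polyoma middle T oncogene is driven by the MMTV promoter, which is active mainly in mammary epithelium, and their ages are not given in the labels.

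The IgG1 and anti-PD-1 groups received only antibody, IgG1 being the isotype control and anti-PD-1 an antibody that blocks the checkpoint receptor PD-1. Their treatment began at a tumor diameter of 0.6 cm, with 20 mg/kg antibody first and 10 mg/kg later. The DOX/IgG1 and DOX/anti-PD-1 groups received the same antibodies at 10 mg/kg, a day after each weekly dose of 5 mg/kg doxorubicin (DOX), a DNA-damaging chemotherapy, and began at 1 cm. The label of each tumor gives weekly treatment over 5 weeks, while the protocol has the groups without DOX dosed every 6 days up to day 18, and which of these was followed is not known. A comparison of DOX with no DOX is therefore also one of the starting size, the first antibody dose and, by the protocol, the number, spacing and span of the antibody doses. These cannot be told apart. The replicates are separate tumors, so each p-value measures the spread between these tumors and nothing wider.

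In the mammary gland, an inner layer of luminal cells faces the duct and can make milk, while an outer basal layer of contractile myoepithelial cells rests on the basement membrane. Keratins build the intermediate filaments of epithelial cells, and every filament pairs a type I with a type II keratin: Krt18 and Krt19 with Krt8 and Krt7 in luminal cells, Krt14 and Krt17 with Krt5 in basal cells. Epcam and Cdh1 (E-cadherin) join epithelial cells to each other, and Trp63 encodes p63, a transcription factor that basal cells need. In bulk RNA, fewer cells of a type and less RNA of a gene in each cell cannot be told apart.

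The deposited values are log2(TPM + 1), and they were turned back into TPM wherever a level is given. Read counts are not part of them, which leaves the depth of the libraries unknown. The listed TPM summed to between 609418 and 725506 per tumor. Of the 12 libraries, DOX/IgG1 replicate 1 stood apart from the rest. It listed 8104 genes at 0, the most of any tumor, and its median correlation with the other tumors over 14735 genes was 0.884, the lowest. Its highest correlation with any tumor was 0.892, against at least 0.904 for each of the others, and its deposited column header carries the word test. Next by correlation came DOX/anti-PD-1 replicate 3, with a median of 0.888, while by genes at 0 it was DOX/anti-PD-1 replicate 1, with 7730. Results that rest on DOX/IgG1 replicate 1 are therefore given with and without it, a choice made after seeing the data. The headers of the DOX/anti-PD-1 tumors end in another suffix than those of the other groups. The labels do not say what it stands for, and it cannot be told apart from that treatment.

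On the mouse assembly GRCm38, the keratin members lie in 2 gene clusters. The type II genes sit on chromosome 15, Krt7 (ENSMUSG00000023039) at chr15:101411043-101430313, Krt5 (ENSMUSG00000061527) at chr15:101707070-101712898 and Krt8 (ENSMUSG00000049382) at chr15:101996698-102004482. Next to Krt8, at chr15:102028180-102032027, lies Krt18 (ENSMUSG00000023043), a type I gene outside the type I cluster. The other type I genes are on chromosome 11, Krt19 (ENSMUSG00000020911) at chr11:100140810-100148665, Krt14 (ENSMUSG00000045545) at chr11:100203162-100207548 and Krt17 (ENSMUSG00000035557) at chr11:100256217-100261029. Luminal and basal keratins are thus neighbours in both clusters. Epcam (ENSMUSG00000045394) is at chr17:87635979-87651129, Cdh1 (ENSMUSG00000000303) at chr8:106603351-106670246 and Trp63 (ENSMUSG00000022510) at chr16:25683763-25892102.

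Promoter sequences, from 250 bases before to 50 bases after the transcript start, were at hand for 6 of the 10 members, in a set drawn from RefSeq (GRCm38.p6) that did not include Krt19, Krt17, Cdh1 and Trp63. Searched on both strands, 8 motifs gave their most frequent match among the members in AGGTCA, the half-site of nuclear receptors. It was in 4 of the 6 promoters, those of the 4 keratins on chromosome 15, and in 16.26% of all 32851 promoters of the same length. These 4 are printed because both luminal keratins of the Krt8 and Krt18 pair, Krt7 and the basal Krt5 share it; capitals mark AGGTCA or its reverse complement TGACCT, and each sequence runs 5′ to 3′ on the strand of its gene. They lie at chr15:101412153-101412452 (plus strand) for Krt7, chr15:102004293-102004592 (minus strand) for Krt8, chr15:102027966-102028265 (plus strand) for Krt18 and chr15:101712856-101713155 (minus strand) for Krt5.
Krt7: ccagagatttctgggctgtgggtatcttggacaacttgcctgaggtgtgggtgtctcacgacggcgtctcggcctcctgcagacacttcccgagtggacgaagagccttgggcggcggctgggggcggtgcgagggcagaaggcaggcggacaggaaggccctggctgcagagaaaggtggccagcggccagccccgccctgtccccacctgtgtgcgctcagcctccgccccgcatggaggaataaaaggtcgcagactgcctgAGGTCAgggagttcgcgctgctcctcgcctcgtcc
Krt8: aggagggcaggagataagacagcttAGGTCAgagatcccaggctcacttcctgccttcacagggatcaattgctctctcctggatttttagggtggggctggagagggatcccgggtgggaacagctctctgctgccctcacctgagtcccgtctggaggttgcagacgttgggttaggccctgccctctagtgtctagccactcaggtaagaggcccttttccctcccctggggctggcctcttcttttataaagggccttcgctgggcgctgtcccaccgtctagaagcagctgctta
Krt18: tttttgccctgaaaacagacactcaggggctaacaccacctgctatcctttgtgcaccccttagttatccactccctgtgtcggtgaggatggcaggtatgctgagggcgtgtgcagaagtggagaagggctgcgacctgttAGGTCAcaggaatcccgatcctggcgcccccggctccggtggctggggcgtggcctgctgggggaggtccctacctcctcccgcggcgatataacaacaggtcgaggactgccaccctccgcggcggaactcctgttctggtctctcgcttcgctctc
Krt5: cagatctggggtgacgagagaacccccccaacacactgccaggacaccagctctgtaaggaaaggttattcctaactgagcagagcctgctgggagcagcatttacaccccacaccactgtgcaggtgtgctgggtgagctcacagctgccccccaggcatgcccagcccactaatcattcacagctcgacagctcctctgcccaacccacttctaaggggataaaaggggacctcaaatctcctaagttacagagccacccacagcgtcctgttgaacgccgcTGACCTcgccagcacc

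The match stood near the 3′ end of the window in Krt7 and Krt5, in mid-window in Krt18 and near the 5′ end in Krt8. The TATA box letters TATAAA were in the promoter of Krt8 alone among the 6, and in 13.62% of all promoters. The GC box letters GGGCGG were in Krt7 and Epcam (35.66% of all), the GATA letters GATAAG in Krt8 and Krt14 (7.443%) and the E-box letters CACGTG in Epcam (7.15%). None of the 6 held CCAAT (37.41%), the AP-1 letters TGACTCA (5.202%) or the forkhead letters TGTTTAC (3.65%) in this window. The share of G and C ran from 48.3% in Krt14 to 66.3% in Krt7, against a median of 52.7% over all promoters. A match of letters is a description of the sequence and shows no binding.

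Keratin transcripts resemble each other, which bears on how far a short read can be placed. Of the 75-base windows in the transcripts of Krt8, 23.5% of 1884 were also found in another gene, mostly in the pseudogene Krt8-ps. For Krt5 the share was 7.77% of 2123 windows, led by Krt6a, and for Krt14 it was 5.71% of 1682 windows, all in Krt16. Krt7 shared 0.0563% of 7105 windows, and Krt18, Krt19, Krt17, Epcam, Cdh1 and Trp63 shared 0. The partners of the basal keratins were scarce in these tumors, with a mean of 2.74 TPM for Krt6a and 0.152 TPM for Krt16.

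Each luminal member but Krt7 stood above each basal member in all 12 tumors. By the mean over the tumors, the order was Epcam (729 TPM), Krt19 (662 TPM), Krt18 (573 TPM), Cdh1 (357 TPM), Krt8 (353 TPM), Krt7 (68.2 TPM), Krt14 (36.7 TPM), Krt5 (18.7 TPM), Trp63 (15.5 TPM) and Krt17 (8.57 TPM). The first 5 lay between percentile 99.0 and 99.7 among the 21960 listed genes, so the defining markers of luminal epithelium were present in each tumor called mammary by the labels. Krt7 lay at percentile 89.9, Krt14 at 80.4, Krt5 at 67.9, Trp63 at 64.3 and Krt17 at 55.1.

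Some neighbours in this order did not part beyond the spread between tumors. Epcam was above Krt19 in 9 of 12 tumors, and Krt19 was above Krt18 in only 4 of 12 although its mean was higher. Cdh1 was above Krt8 in 8 of 12, Krt7 above Krt14 in 9 of 12, Krt5 above Trp63 in 8 of 12 and Trp63 above Krt17 in 10 of 12. Krt18 above Cdh1, Krt8 above Krt7 and Krt14 above Krt5 held in 12 of 12. From the lowest to the highest tumor, Cdh1 spanned 1.99-fold, Krt18 2.0-fold, Epcam 2.28-fold and Krt8 2.63-fold. Krt19 spanned 7.06-fold, Krt14 6.60-fold, Krt5 6.01-fold, Krt7 5.99-fold, Krt17 5.04-fold and Trp63 4.75-fold.

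**Figure D1:**
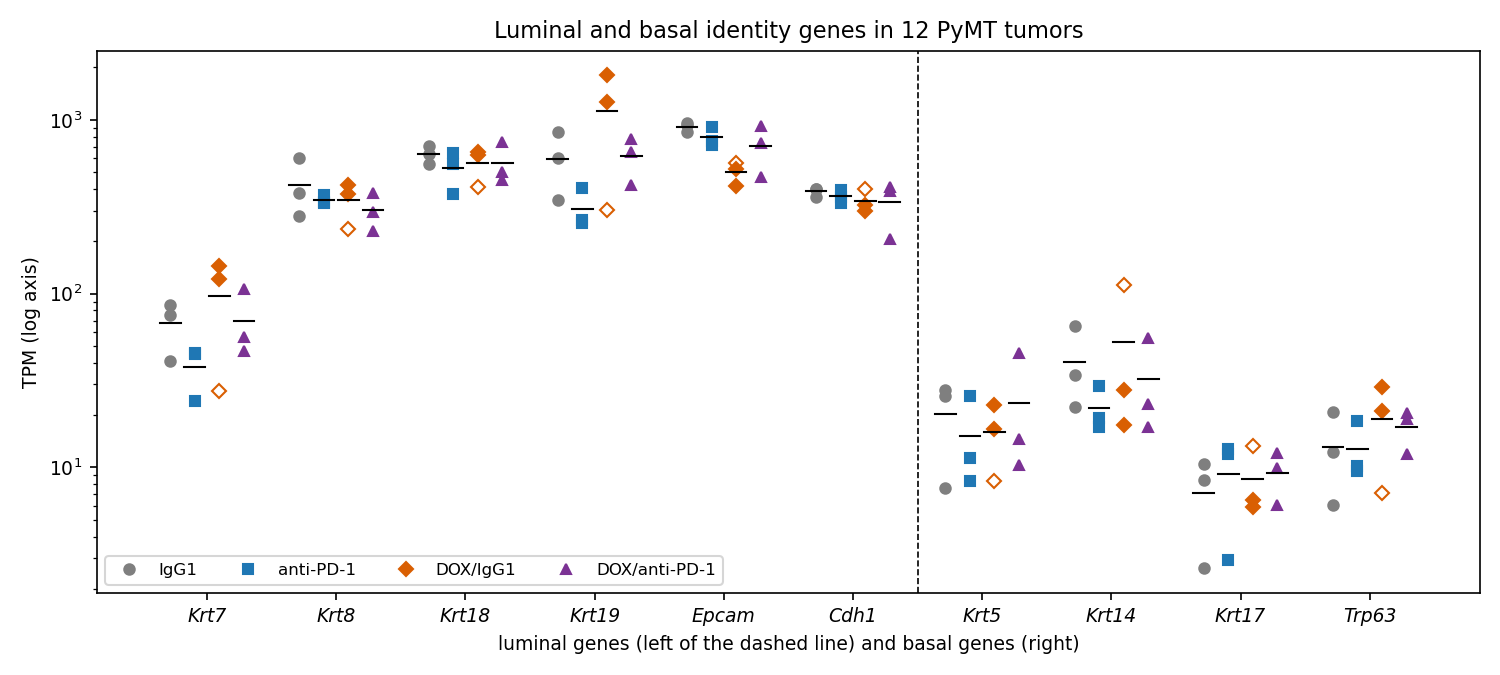
Level of each of the 10 genes (TPM, log axis) in the 12 tumors by treatment group, with points for tumors, black bars for group means and an open diamond for DOX/IgG1 replicate 1. Krt19 ranges from 255 to 1801 TPM and Cdh1 from 207 to 412 TPM.

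Each pairwise comparison was fitted with limma on its 6 tumors, and calling a gene took an adjusted p below 0.1 together with a log2 fold change beyond 1 in size. Fold changes are on the log2(TPM + 1) scale, which understates them for genes at a low level. DOX/IgG1 against IgG1, or DOX beside IgG1, asks what doxorubicin changes with the control antibody. Limma called 0 of the 10 members there, against 0.0360% of 13874 genes, 0.0144% higher and 0.0216% lower. At an unadjusted p below 0.05 stood 1 of 10, Epcam on the lower side, against 7.73% of genes, 5.03% higher and 2.70% lower. Epcam was also the 1 of 10 whose groups did not overlap, against 14.0% of genes, 9.31% higher and 4.64% lower. DOX/anti-PD-1 against anti-PD-1, or DOX beside anti-PD-1, asks the same under PD-1 blockade. There limma called 0 of 10 and 0% of 13736 genes, with 1 of 10, Krt19 on the higher side, at an unadjusted p below 0.05 against 8.63%, 6.30% higher and 2.33% lower. The groups did not overlap for 2 of 10, Krt7 and Krt19, both higher, against 14.9% of genes, 11.1% higher and 3.84% lower. Both overlap after scaling by the median of ratios, with size factors of 1.122 for DOX/anti-PD-1 replicate 2 and 0.9567 for anti-PD-1 replicate 1.

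The antibodies alone were compared in anti-PD-1 against IgG1. Limma called 0 of 10 and 0% of 13692 genes, while 2 of 10, Krt7 and Krt19, were lower at an unadjusted p below 0.05, against 4.60% of genes, 1.75% higher and 2.85% lower. The groups were apart for 0 of 10, against 9.88% of genes, 3.64% higher and 6.24% lower. The DOX groups were compared with each other as DOX/anti-PD-1 against DOX/IgG1. Limma called 0 of 10 and 0% of 13946 genes, and 0 of 10 were at an unadjusted p below 0.05, against 4.70% of genes, 1.81% higher and 2.89% lower, a count that becomes 2 without DOX/IgG1 replicate 1. Apart there were 0 of 10, against 10.2% of genes, 4.27% higher and 5.95% lower.

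DOX against no DOX over both antibodies, called pooled DOX from here on, uses all 12 tumors with the antibody as a covariate. Limma called 0 of 10 members against 0.0204% of 14735 genes. At an unadjusted p below 0.05 were 2 of 10, Krt19 higher and Epcam lower, against 12.0% of genes, 8.82% higher and 3.16% lower. The interaction, the DOX effect with anti-PD-1 minus that with IgG1, called 0 of 10 against 0.00679% by limma and had 0 of 10 at an unadjusted p below 0.05, against 4.71%, 2.26% higher and 2.45% lower. A p that misses a limit does not show that levels were equal.

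The comparisons share tumors, so their values are set side by side and no overlap between them is counted. The median log2 fold change of all genes was 0.121 in DOX/IgG1 against IgG1, 0.108 with DOX beside anti-PD-1 and 0.116 for pooled DOX. Scaling by the median of ratios moved these medians by -0.108, -0.116 and -0.109, so changes with DOX are to be read against about that shift. For the antibodies the median was -0.026 without DOX and -0.037 with DOX. The number of genes called with DOX depended on DOX/IgG1 replicate 1. Without it, limma called 122 genes (0.879%) in DOX/IgG1 against IgG1, where it had called 5, and 212 (1.44%) for pooled DOX, where it had called 3. With any other tumor left out, the counts were at most 2 and 27.

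Leaving out DOX/IgG1 replicate 1 also changed how many members were at an unadjusted p below 0.05. With DOX beside IgG1 it was 3 of 10, Krt7 and Krt19 higher and Epcam lower, against 9.10% of genes higher and 3.91% lower. For pooled DOX it was 4 of 10, Krt7, Krt19 and Trp63 higher and Epcam lower, against 11.3% and 3.41%. The comparison of the DOX groups had 2 of 10, Krt7 and Krt19, both lower, against 2.51% higher and 5.03% lower. The interaction still had 0 of 10, against 2.58% and 3.88%.

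Krt19 is the smallest keratin, lacks the tail domain of the others, and is a type I partner of Krt7 and Krt8 in luminal cells. Its level was 847, 347 and 601 in the IgG1 tumors, 406, 255 and 265 in the anti-PD-1 tumors, 302, 1261 and 1801 in the DOX/IgG1 tumors and 656, 421 and 779.9 in the DOX/anti-PD-1 tumors, in TPM. DOX/IgG1 replicates 2 and 3 were the highest of all 12, while replicate 1 of that group was below every IgG1 tumor. Each DOX/anti-PD-1 tumor was above each anti-PD-1 tumor, although the nearest were 421 and 406 TPM. These nearest tumors change order after scaling by the median of ratios (size factors 1.122 and 0.9567), so the groups then overlap. Group means were 599 ± 250.3 TPM with IgG1, 309 ± 84.4 with anti-PD-1, 1121 ± 759 with DOX/IgG1 and 619 ± 182 with DOX/anti-PD-1 (SD, n = 3).

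The log2 fold change of Krt19 was 0.99 (SE 0.30, limma adjusted p = 0.489) with DOX beside anti-PD-1, and the exact permutation test gave p = 0.1, the smallest that 3 tumors against 3 allow. In DOX/IgG1 against IgG1 it was 0.65 (SE 0.62, limma adjusted p = 0.822), and 1.42 (SE 0.39, limma adjusted p = 0.188) without DOX/IgG1 replicate 1. Leaving out another tumor lowered it to as little as 0.14. Pooled DOX gave 0.82 (SE 0.37, limma adjusted p = 0.395), with an exact permutation p of 0.105 when DOX was permuted within each antibody. Without DOX/IgG1 replicate 1 the value was 1.18 (SE 0.26, limma adjusted p = 0.0577), which passed both limits, where 1.44% of genes did. Over all its alternatives, this adjusted p ranged from 0.0577 to 0.599. With anti-PD-1 alone, Krt19 stood at -0.89 (SE 0.34, limma adjusted p = 0.996) against IgG1, with 2 of 3 tumors below every IgG1 tumor. Between the DOX groups it was -0.56 (SE 0.60, limma adjusted p = 0.990), and -1.33 (SE 0.34, limma adjusted p = 0.407) without DOX/IgG1 replicate 1. With another tumor left out, it came as near to 0 as -0.042.

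Krt7 is a type II keratin of simple epithelia and of ducts. In TPM it was at 85.5, 41.2 and 75.7 in the IgG1 tumors, 45.5, 23.9 and 44.8 in the anti-PD-1 tumors, 27.4, 121 and 144 in the DOX/IgG1 tumors and 56.0, 46.7 and 107 in the DOX/anti-PD-1 tumors. The order of the tumors was close to that of Krt19, with DOX/IgG1 replicates 2 and 3 and DOX/anti-PD-1 replicate 3 highest, and with anti-PD-1 replicate 2 and DOX/IgG1 replicate 1 lowest. Group means were 67.4 ± 23.3 TPM with IgG1, 38.1 ± 12.2 with anti-PD-1, 97.3 ± 61.6 with DOX/IgG1 and 69.8 ± 32.3 with DOX/anti-PD-1 (SD, n = 3). All DOX/anti-PD-1 tumors were above all anti-PD-1 tumors, by a gap of 46.7 to 45.5 TPM at the nearest, with a log2 fold change of 0.82 (SE 0.37, limma adjusted p = 0.582). As for Krt19, the groups overlap after scaling by the median of ratios (size factors 1.122 and 0.9567 for the nearest tumors). With DOX beside IgG1 the groups overlapped, and the value was 0.28 (SE 0.58, limma adjusted p = 0.928), or 1.02 (SE 0.34, limma adjusted p = 0.255) without DOX/IgG1 replicate 1. The pooled DOX value was 0.55 (SE 0.37, limma adjusted p = 0.586), or 0.91 (SE 0.26, limma adjusted p = 0.123) without that tumor. Against IgG1, anti-PD-1 gave -0.80 (SE 0.35, limma adjusted p = 0.996), and only the IgG1 tumor at 41.2 TPM lay within the anti-PD-1 values.

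Krt8 is the main type II keratin of simple epithelia, and Krt18 its type I partner, each being unstable without the other. Krt8 was at 606, 278 and 377 in the IgG1 tumors, 369, 335 and 330.4 in the anti-PD-1 tumors, 236, 373 and 422 in the DOX/IgG1 tumors and 378, 296 and 231 in the DOX/anti-PD-1 tumors, in TPM. IgG1 replicate 1 was highest, and DOX/anti-PD-1 replicate 3 and DOX/IgG1 replicate 1 were lowest, and the groups overlapped in the 4 pairwise comparisons. Krt18 was at 707, 557 and 635 in the IgG1 tumors, 648, 376 and 557 in the anti-PD-1 tumors, 412, 628 and 655 in the DOX/IgG1 tumors and 749.6, 499 and 448 in the DOX/anti-PD-1 tumors, in TPM. Anti-PD-1 replicate 2 and DOX/IgG1 replicate 1 were lowest, and the groups overlapped in all 4 pairwise comparisons. Over both antibodies, DOX gave -0.24 (SE 0.21, limma adjusted p = 0.685) for Krt8, with -0.35 to -0.10 over tumors left out in turn. For Krt18 the same comparison gave -0.043 (SE 0.20, limma adjusted p = 0.956), with 0.068 without DOX/IgG1 replicate 1, so its direction turned on that tumor. Against IgG1, anti-PD-1 alone gave -0.21 (SE 0.29, limma adjusted p = 0.996) for Krt8.

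Epcam is a cell surface protein of nearly all simple epithelia that takes part in adhesion and signaling. Its level was 938, 846 and 954 in the IgG1 tumors, 911, 712 and 757 in the anti-PD-1 tumors, 565, 522 and 418 in the DOX/IgG1 tumors and 734, 920.1 and 468 in the DOX/anti-PD-1 tumors, in TPM. All DOX/IgG1 tumors were below all IgG1 tumors, the nearest being 565 and 846 TPM, whereas the groups treated with anti-PD-1 overlapped. Group means were 912 ± 58.4 TPM with IgG1, 793 ± 104 with anti-PD-1, 502 ± 75.6 with DOX/IgG1 and 707 ± 227 with DOX/anti-PD-1 (SD, n = 3). In DOX/IgG1 against IgG1 the log2 fold change was -0.87 (SE 0.23, limma adjusted p = 0.469), and -0.96 (SE 0.24, limma adjusted p = 0.174) without DOX/IgG1 replicate 1. The unadjusted limma p was 0.00479 and the exact permutation test gave p = 0.1, its smallest. With anti-PD-1 the DOX value was smaller, -0.21 (SE 0.30, limma adjusted p = 0.860), but the test of the difference, the interaction, gave 0.66 (SE 0.38, limma adjusted p = 0.993). Pooled DOX gave -0.54 (SE 0.20, limma adjusted p = 0.319) with an exact permutation p of 0.035, and its adjusted p ranged from 0.201 to 0.491 over the alternatives. The 3 tumors with the lowest Epcam, DOX/IgG1 replicates 2 and 3 and DOX/anti-PD-1 replicate 3, were the 3 with the highest Krt7.

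Cdh1, the cadherin of epithelial adherens junctions, varied least of the 10 genes by the ratio of the highest to the lowest tumor. In TPM it was at 402, 360.4 and 399 in the IgG1 tumors, 397, 358 and 334 in the anti-PD-1 tumors, 398, 299.8 and 323 in the DOX/IgG1 tumors and 387, 412 and 207 in the DOX/anti-PD-1 tumors. DOX/anti-PD-1 replicate 3 was the lowest and DOX/anti-PD-1 replicate 2 the highest, so that group alone spanned the whole range. The value for pooled DOX was -0.18 (SE 0.18, limma adjusted p = 0.721), and it ran from -0.26 to -0.045 over tumors left out in turn. In the 4 pairwise comparisons the Cdh1 groups overlapped, with log2 fold changes from -0.19 to -0.074.

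Krt5 is the type II keratin of basal cells. Its level in TPM was 27.7, 7.58 and 25.7 in the IgG1 tumors, 8.37, 25.8 and 11.3 in the anti-PD-1 tumors, 8.32, 16.5 and 23.0 in the DOX/IgG1 tumors and 10.3, 45.5 and 14.6 in the DOX/anti-PD-1 tumors. DOX/anti-PD-1 replicate 2 was highest, IgG1 replicate 2 lowest, and each group had at least 1 tumor near 10 TPM and 1 above 20 TPM. The pooled DOX value was 0.11 (SE 0.43, limma adjusted p = 0.95), and -0.0058 after scaling by the median of ratios, so no direction can be given. Krt14 is its type I partner in basal cells. In TPM it was at 64.7, 22.1 and 34.2 in the IgG1 tumors, 19.3, 29.6 and 17.0 in the anti-PD-1 tumors, 112, 17.7 and 27.8 in the DOX/IgG1 tumors and 17.1, 55.9 and 23.3 in the DOX/anti-PD-1 tumors. DOX/IgG1 replicate 1 was far above the other tumors, and the next were IgG1 replicate 1 and DOX/anti-PD-1 replicate 2. With DOX beside IgG1, Krt14 gave 0.062 (SE 0.65, limma adjusted p = 0.988), -0.70 (SE 0.45, limma adjusted p = 0.554) without DOX/IgG1 replicate 1 and -0.054 after scaling, so its direction rested on that tumor. With the antibodies pooled, the value was 0.23 (SE 0.41, limma adjusted p = 0.868) with that tumor and -0.095 (SE 0.36, limma adjusted p = 0.931) without it. With anti-PD-1 alone, it was -0.75 (SE 0.39, limma adjusted p = 0.996) against IgG1.

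Krt17 is a type I keratin of basal cells that is also made in stressed or wounded epithelia. Its level was 10.4, 2.63 and 8.44 in the IgG1 tumors, 12.7, 12.0 and 2.94 in the anti-PD-1 tumors, 13.3, 6.53 and 5.92 in the DOX/IgG1 tumors and 6.07, 12.0 and 9.92 in the DOX/anti-PD-1 tumors, in TPM. Every group held a tumor above 10 TPM, and the groups overlapped in all 4 pairwise comparisons. Over both antibodies, DOX gave 0.24 (SE 0.38, limma adjusted p = 0.841). Trp63 was at 12.3, 6.10 and 20.7 in the IgG1 tumors, 9.49, 18.4 and 10.2 in the anti-PD-1 tumors, 7.12, 29.0 and 21.1 in the DOX/IgG1 tumors and 11.9, 18.9 and 20.6 in the DOX/anti-PD-1 tumors, in TPM. The highest tumor was DOX/IgG1 replicate 2, and the lowest were IgG1 replicate 2 and DOX/IgG1 replicate 1. Over both antibodies, Trp63 gave 0.45 (SE 0.35, limma adjusted p = 0.642), or 0.69 (SE 0.31, limma adjusted p = 0.316) without DOX/IgG1 replicate 1.

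**Figure D2:**
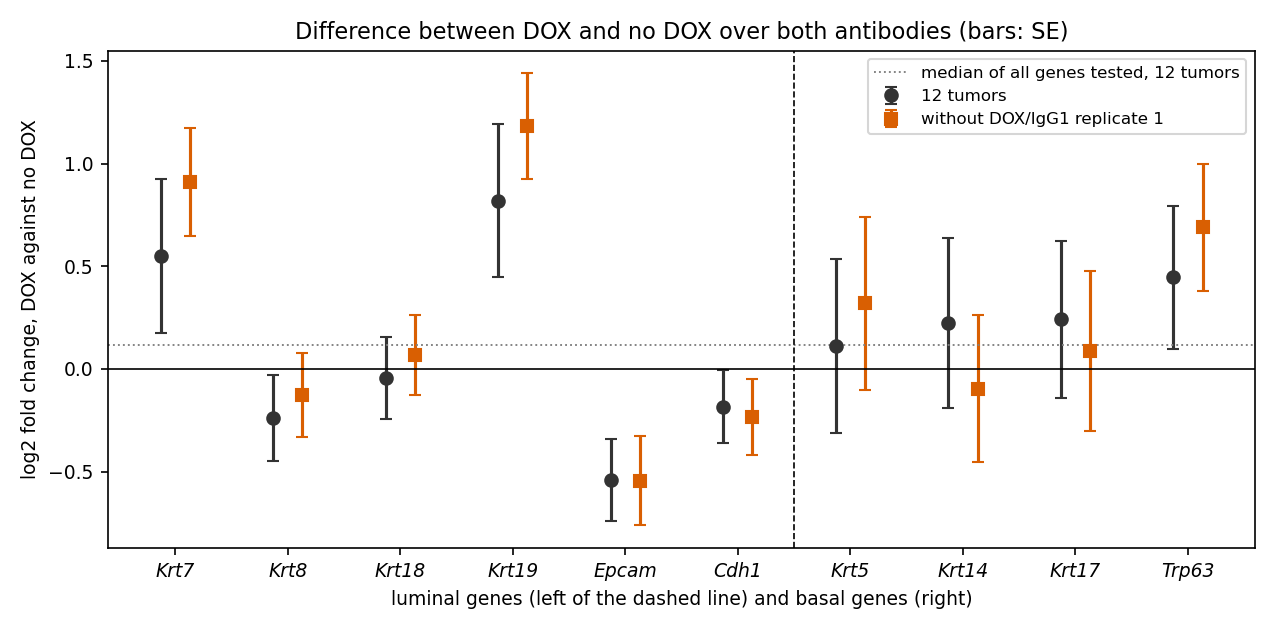
Log2 fold change of the 10 genes for DOX against no DOX over both antibodies, with all 12 tumors and without DOX/IgG1 replicate 1; bars are standard errors and dotted lines the median of all genes. Krt19 moves from 0.82 to 1.18 and Krt14 from 0.23 to -0.095 when that tumor is left out.

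As lists, the luminal and basal members can be set beside all genes. With pooled DOX, the median log2 fold change was -0.113 for the 6 luminal members and 0.233 for the 4 basal members, against 0.116 for all genes. Of the luminal members 2 were above 0 and 4 below, and of the basal members 4 were above 0, 3 after scaling since Krt5 turned. With DOX beside anti-PD-1 the medians were -0.036 and 0.409, against 0.108. In DOX/IgG1 against IgG1 they were -0.19 and 0.186, against 0.121, and without DOX/IgG1 replicate 1 they were 0.009 and 0.056, against 0.152, with 3 luminal and 2 basal members above 0. With anti-PD-1 against IgG1, all 6 luminal members were below 0 with a median of -0.253, and the basal members had 2 above and 2 below with a median of -0.157, against -0.026 for all genes. Krt8 reached 0.087 there when a single tumor was left out. Between the DOX groups the medians were -0.125 and 0.08, against -0.037, and without that tumor -0.321 and 0.157, against -0.073. Pooled DOX without it had -0.029 and 0.204, against 0.13. For the interaction, all 6 luminal members were above 0, with a median of 0.313 against -0.008, but without DOX/IgG1 replicate 1 there were 3 above and 3 below, with a median of -0.063 against -0.055.

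The balance of the keratins in a tumor can be read from the 7 keratin members, whose TPM was summed. The sum was 2348, 1256 and 1757 in the IgG1 tumors, 1509, 1057 and 1229 in the anti-PD-1 tumors, 1111, 2425 and 3078 in the DOX/IgG1 tumors and 1873, 1376 and 1613 in the DOX/anti-PD-1 tumors. The basal keratins Krt5, Krt14 and Krt17 made up, in percent of that sum, 4.38, 2.57 and 3.89 in the IgG1 tumors, 2.68, 6.37 and 2.54 in the anti-PD-1 tumors, 12.0, 1.68 and 1.84 in the DOX/IgG1 tumors and 1.79, 8.24 and 2.97 in the DOX/anti-PD-1 tumors. DOX/IgG1 replicate 1 and DOX/anti-PD-1 replicate 2 held the largest basal shares, and DOX/IgG1 replicates 2 and 3 were among the 3 smallest. The SD within each DOX group was larger than every difference between group means. The means were 3.61 ± 0.931% with IgG1, 3.86 ± 2.17% with anti-PD-1, 5.18 ± 5.93% with DOX/IgG1 and 4.33 ± 3.44% with DOX/anti-PD-1 (SD, n = 3), and the median over the 12 tumors was 2.82%.

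Krt19 took a share of the keratin sum, in percent, of 36.1, 27.6 and 34.2 in the IgG1 tumors, 26.9, 24.1 and 21.6 in the anti-PD-1 tumors, 27.2, 52.0 and 58.5 in the DOX/IgG1 tumors and 35.0, 30.6 and 48.3 in the DOX/anti-PD-1 tumors. Every anti-PD-1 tumor was below every IgG1 tumor, the nearest being 26.9 and 27.6, and below every DOX/anti-PD-1 tumor, the nearest being 26.9 and 30.6. DOX/IgG1 replicates 2 and 3 had the highest shares. Krt8 had shares of 25.8, 22.2 and 21.5 in the IgG1 tumors, 24.5, 31.7 and 26.9 in the anti-PD-1 tumors, 21.3, 15.4 and 13.7 in the DOX/IgG1 tumors and 20.2, 21.5 and 14.3 in the DOX/anti-PD-1 tumors. All DOX tumors of the IgG1 arm were below all IgG1 tumors in this share, though the nearest were 21.3 and 21.5. All DOX/anti-PD-1 tumors were below all anti-PD-1 tumors, the nearest being 21.5 and 24.5. Of single genes, 14.0% were apart in either direction in DOX/IgG1 against IgG1. The same held for 14.9% with DOX beside anti-PD-1 and 9.88% in anti-PD-1 against IgG1. The keratin shares are parts of 1 sum, so a rise of Krt19 lowers the others. No test is given for scores that combine members.

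**Figure D3:**
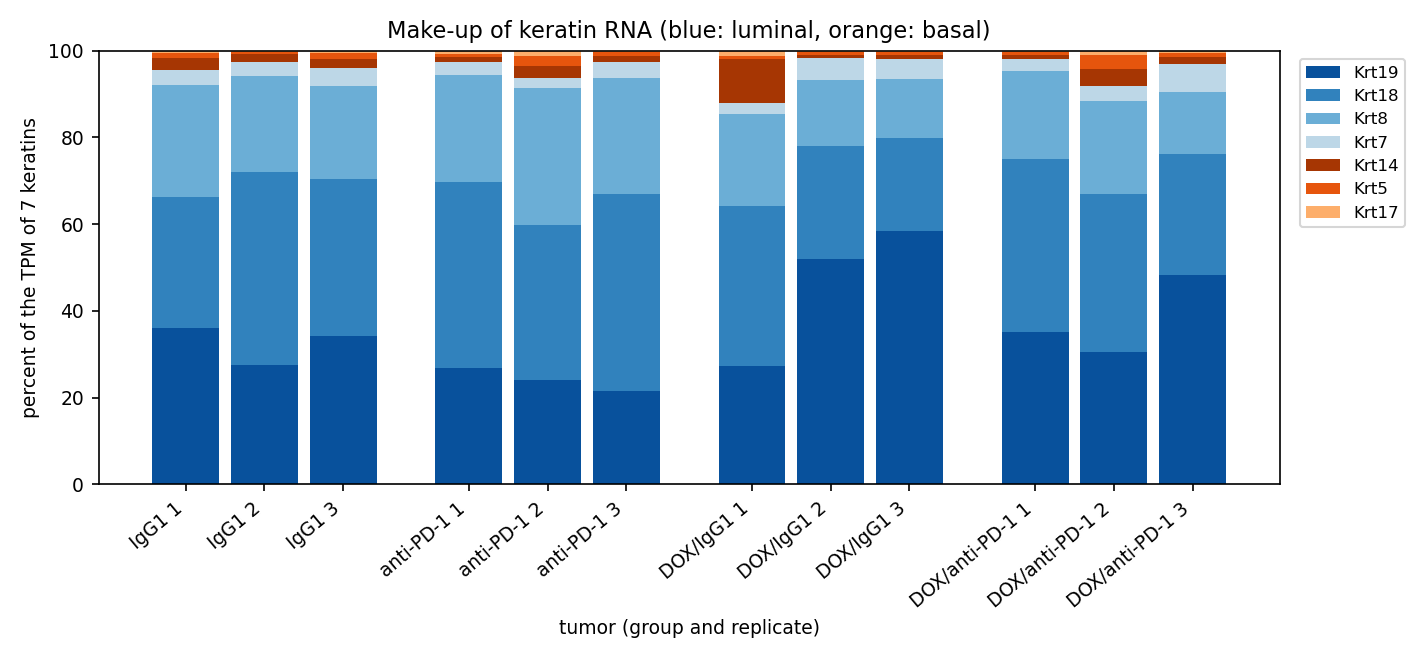
Share of each of the 7 keratins in their summed TPM (percent, stacked bars from 0) for each of the 12 tumors. Krt19 takes 58.5% in DOX/IgG1 replicate 3 and 21.6% in anti-PD-1 replicate 3, and Krt14 takes 10.1% in DOX/IgG1 replicate 1.

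Since filaments pair the types at equal amounts, the ratio of type I (Krt14, Krt17, Krt18 and Krt19) to type II (Krt5, Krt7 and Krt8) TPM was formed. It was 2.27, 2.84 and 2.67 in the IgG1 tumors, 2.57, 1.75 and 2.18 in the anti-PD-1 tumors, 3.08, 3.74 and 4.23 in the DOX/IgG1 tumors and 3.21, 2.55 and 3.58 in the DOX/anti-PD-1 tumors. Type I transcripts were in excess in every tumor. The DOX/IgG1 ratios were all above the IgG1 ratios, where 14.0% of single genes were apart in either direction. The groups treated with anti-PD-1 overlapped at 2.55 and 2.57. The ratio of Krt18 to Krt8 stayed between 1.12 and 2.0. The ratio of Krt19 to Krt8 was 1.40, 1.25 and 1.59 in the IgG1 tumors, 1.10, 0.762 and 0.802 in the anti-PD-1 tumors, 1.28, 3.38 and 4.27 in the DOX/IgG1 tumors and 1.73, 1.43 and 3.38 in the DOX/anti-PD-1 tumors. It was lower in each anti-PD-1 tumor than in each tumor of the other 3 groups, the nearest being 1.10 and 1.25. Of single genes, 9.88% were apart between anti-PD-1 and IgG1, and 14.9% between the groups treated with anti-PD-1. Krt14 to Krt5 was 13.5 in DOX/IgG1 replicate 1 and between 1.07 and 2.92 in the other 11 tumors.

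Correlations of log2(TPM + 1) across the 12 tumors were computed for all 45 pairs of members, with permutation p-values adjusted over the 45. For Krt7 and Krt19, Pearson r was 0.940 (permutation p = 2e-05, adjusted p = 0.0009) and Spearman rho 0.965 (permutation p = 2e-05, adjusted p = 0.0009), from 100000 permutations. Without the 2 tumors farthest from the median of Krt7, DOX/IgG1 replicates 2 and 3, r was 0.900, and for deviations from the group means it was 0.935. This pair, a type II and a type I luminal keratin, was the only one of the 45 with an adjusted p of r below 0.05.

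For Krt8 and Krt18, Pearson r was 0.719 (permutation p = 0.00710, adjusted p = 0.107) and Spearman rho 0.825 (permutation p = 0.00156, adjusted p = 0.0318). Without the 2 farthest tumors r was 0.689, and within groups 0.736. For Epcam and Cdh1, Pearson r was 0.703 (permutation p = 0.00601, adjusted p = 0.107) and Spearman rho 0.811 (permutation p = 0.00212, adjusted p = 0.0318). Without the 2 farthest r was 0.628, and within groups 0.887. The 3 pairs Krt7 with Krt19, Krt8 with Krt18 and Epcam with Cdh1 were those with an adjusted p of rho below 0.05. The next joined both layers, the luminal Krt7 and the basal Trp63, with Spearman rho 0.762 (permutation p = 0.00512, adjusted p = 0.0576) and Pearson r 0.612. For Krt19 and Trp63, rho was 0.671 (permutation p = 0.0203, adjusted p = 0.153).

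Among basal members, Krt5 and Trp63 were the closest. For them Pearson r was 0.694 (permutation p = 0.0129, adjusted p = 0.145) and Spearman rho 0.664 (permutation p = 0.0204, adjusted p = 0.153). Without the 2 farthest r was 0.652, and within groups 0.743. Without DOX/IgG1 replicate 1 it was 0.642, and Krt5 and Krt14 were then closer. For the partners Krt5 and Krt14, Pearson r was 0.313 (permutation p = 0.324, adjusted p = 0.607) and Spearman rho 0.434 (permutation p = 0.163, adjusted p = 0.522). Without the 2 tumors farthest in Krt5 r was 0.118, within groups it was 0.313, and without DOX/IgG1 replicate 1 it was 0.817. The weak relation of this pair thus rested on 1 tumor, whose Krt14 was 112 TPM and Krt5 8.32 TPM. Krt19 and Epcam ran in opposite directions, where Pearson r was -0.508 (permutation p = 0.0900, adjusted p = 0.388) and Spearman rho -0.238 (permutation p = 0.455, adjusted p = 0.697). Without DOX/IgG1 replicates 2 and 3, r was 0.0186, so that relation rests on those tumors, and within groups it was -0.358.

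**Figure D4:**
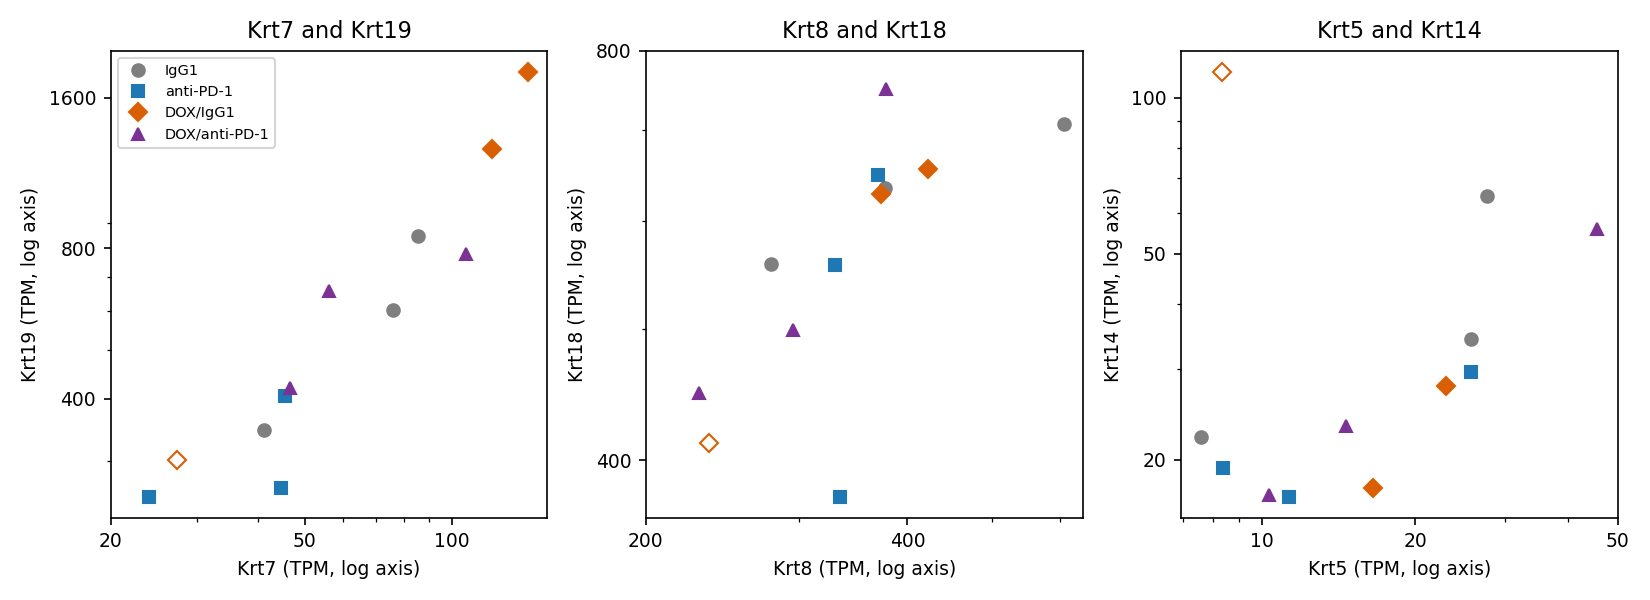
Levels of 3 keratin pairs in the 12 tumors (TPM, log axes), with points for tumors by group and an open diamond for DOX/IgG1 replicate 1. Krt7 and Krt19 follow each other, with r of 0.940, and DOX/IgG1 replicate 1 lies away from the other tumors in the panel of Krt5 and Krt14.

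**Figure D5:**
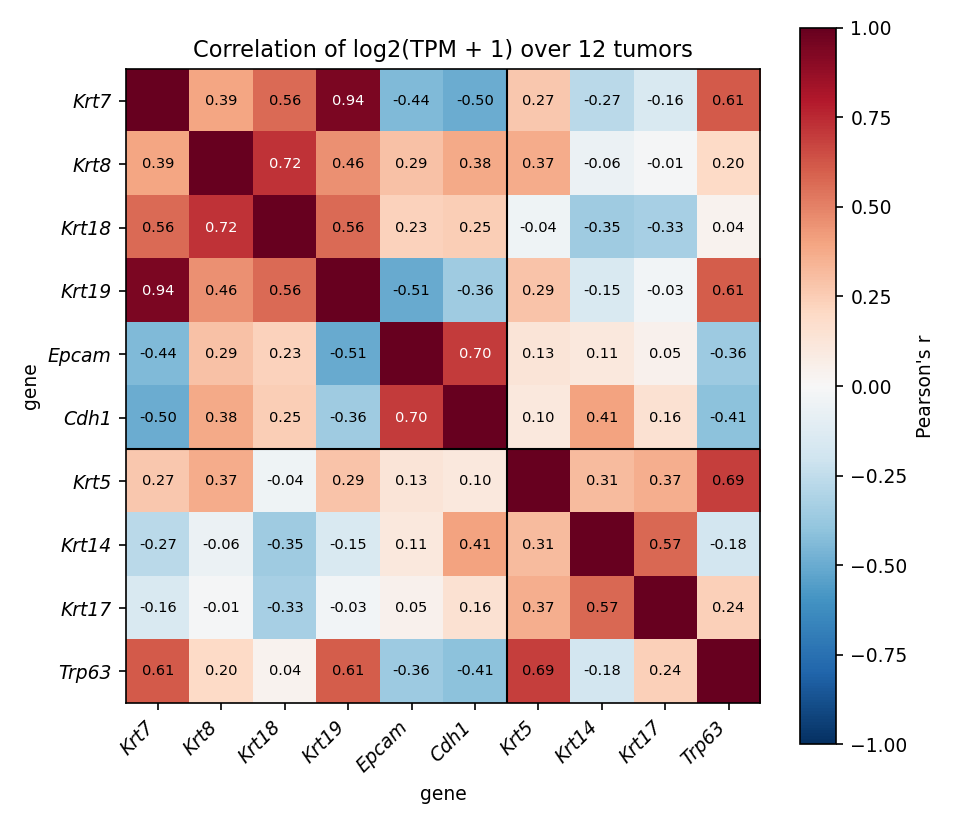
Pearson r of log2(TPM + 1) over the 12 tumors for each pair of the 10 genes. The value for Krt7 and Krt19 is 0.940 and that for Krt5 and Krt14 is 0.313.

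The genes most like Krt14 and Krt8 across the 12 tumors were looked up among 14735 genes, as a description with no test. The 5 nearest Krt14 by Pearson r were Gdf5 (0.938), Ppbp (0.915), Stk11ip (0.912), Il6 (0.894) and Serpine2 (0.884). Without DOX/IgG1 replicate 1 these r were 0.879, 0.860, 0.824, 0.811 and 0.782. Ppbp was above 0 only in IgG1 replicate 1 (1.27 TPM), DOX/IgG1 replicate 1 (6.47 TPM) and DOX/anti-PD-1 replicate 2 (1.53 TPM). Gdf5, a growth factor of the BMP family, was at 8.29, 4.33 and 7.61 in the IgG1 tumors, 2.79, 3.49 and 3.87 in the anti-PD-1 tumors, 25.2, 2.51 and 6.06 in the DOX/IgG1 tumors and 2.40, 10.98 and 2.90 in the DOX/anti-PD-1 tumors, in TPM, and like Krt14 it was highest in DOX/IgG1 replicate 1. Il6, a cytokine, was also among the 5, at no more than 3.77 TPM in any tumor. The 5 nearest Krt8 were Selenom (0.879), Igsf8 (0.876), Cd207 (0.846, at most 1.77 TPM), Smdt1 (0.821) and Slc15a3 (0.816). Those nearest Krt19 and Epcam were looked up after their values had been seen. For Krt19 they were Aebp1 (0.941), Krt7 (0.940), Kirrel3 (0.927), Fam118a (0.926) and Trim23 (0.924), with its partner Krt7 in the second place among all genes. For Epcam they were G0s2 (0.951), Cd44 (0.935), Spint2 (0.933), P4hb (0.931) and Chit1 (0.929). Of these, Cd44 is an adhesion receptor for hyaluronan and Spint2 a protease inhibitor of epithelia.

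Among all 54 keratin genes listed, 7 had a mean of at least 10 TPM. They were Krt19, Krt18, Krt8, Krt7, Krt14, Krt5 and Krt23, and the 7 keratin members together held 96.7% of the keratin TPM. Krt23, a type I keratin, was at 10.3, 18.2 and 8.77 in the IgG1 tumors, 17.9, 13.4 and 24.4 in the anti-PD-1 tumors, 24.8, 10.8 and 10.4 in the DOX/IgG1 tumors and 13.2, 8.27 and 5.46 in the DOX/anti-PD-1 tumors, in TPM. Each DOX/anti-PD-1 tumor was below each anti-PD-1 tumor, the nearest being 13.2 and 13.4 TPM, with a log2 fold change of -1.0 (SE 0.38, limma adjusted p = 0.533), and the other pairs overlapped. Keratins of the hair follicle sheath were listed in some tumors, and the choice of these was made after seeing values. Krt25 was at 18.8 and 32.3 TPM in anti-PD-1 replicates 1 and 2 and at 0 in the other 10 tumors. Krt4, a keratin of stratified lining epithelia, was at 3.73, 1.42 and 0.490 in the IgG1 tumors, 0, 0.590 and 3.69 in the anti-PD-1 tumors, 1.06, 10.6 and 16.5 in the DOX/IgG1 tumors and 5.23, 4.87 and 11.1 in the DOX/anti-PD-1 tumors, in TPM. Its highest values were in DOX/IgG1 replicates 2 and 3 and DOX/anti-PD-1 replicate 3, the tumors with the highest Krt7.

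A list of 30 other luminal genes had 29 tested, and limma called 0 of them in all 6 fits. With the antibodies pooled, 3 were higher and 4 lower at an unadjusted p below 0.05, against 8.82% and 3.16% of all genes, with a median log2 fold change of -0.12 against 0.116. For the other fits, the shares of all genes at that p are those given above beside the members. With DOX beside IgG1 it was 1 higher and 4 lower with a median of -0.334, and with DOX beside anti-PD-1 3 higher and 1 lower with a median of 0.066. With anti-PD-1 against IgG1, 0 were higher and 3 lower with a median of -0.211. Between the DOX groups there were 0 higher and 1 lower with a median of 0.025, and for the interaction 0 either way with a median of 0.261. Without DOX/IgG1 replicate 1, pooled DOX had 4 called higher and 1 called lower by limma, against 1.21% and 0.224% of all genes, and a median of -0.142. DOX beside IgG1 then had 2 called higher and 1 lower, against 0.692% and 0.187%, with a median of -0.155. The medians turned to -0.211 between the DOX groups (4 higher, 6 lower at an unadjusted p below 0.05, against 2.51% and 5.03%) and moved to 0.065 for the interaction.

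The most abundant of these was Wfdc18, which encodes a whey acidic protein family member. It was at 3328, 1902 and 2351 in the IgG1 tumors, 2369.7, 2561 and 3467 in the anti-PD-1 tumors, 2912, 873 and 658 in the DOX/IgG1 tumors and 1851, 2461 and 851 in the DOX/anti-PD-1 tumors, in TPM. It was lowest in DOX/IgG1 replicates 2 and 3 and in DOX/anti-PD-1 replicate 3, the tumors with the highest Krt7 and the lowest Epcam. Pooled DOX gave -0.93 (SE 0.35, limma adjusted p = 0.329), or -1.21 (SE 0.30, limma adjusted p = 0.0834) without DOX/IgG1 replicate 1. Ltf, the milk protein lactoferrin, was at 1433, 897 and 1758 in the IgG1 tumors, 899, 771 and 647 in the anti-PD-1 tumors, 7185, 1022 and 750.2 in the DOX/IgG1 tumors and 1428, 865 and 648 in the DOX/anti-PD-1 tumors, in TPM. DOX/IgG1 replicate 1, which stood apart in Krt14, was also far above the others here. Ly6d, a surface protein found on luminal cells and keratinocytes, was at 45.8, 20.3 and 18.0 in the IgG1 tumors, 16.4, 12.6 and 10.5 in the anti-PD-1 tumors, 29.2, 79.2 and 122 in the DOX/IgG1 tumors and 40.1, 24.1 and 21.9 in the DOX/anti-PD-1 tumors, in TPM. Each DOX/anti-PD-1 tumor was above each anti-PD-1 tumor, and the highest were DOX/IgG1 replicates 2 and 3. The pooled DOX value was 1.18 (SE 0.33, limma adjusted p = 0.206), or 1.42 (SE 0.29, limma adjusted p = 0.0457) without DOX/IgG1 replicate 1. Areg, a ligand of the EGF receptor, was at 26.9, 19.6 and 84.6 in the IgG1 tumors, 22.0, 3.17 and 40.4 in the anti-PD-1 tumors, 3.81, 8.46 and 14.5 in the DOX/IgG1 tumors and 0, 12.8 and 75.6 in the DOX/anti-PD-1 tumors, in TPM, and it varied widely within groups, with -1.34 (SE 0.86, limma adjusted p = 0.563) for pooled DOX. Each DOX/IgG1 tumor was below each IgG1 tumor, with -2.04 (SE 0.60, limma adjusted p = 0.494), where 4.64% of genes were apart and lower. The groups treated with anti-PD-1 overlapped.

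Besides Ly6d and Wfdc18, the genes of this list called without DOX/IgG1 replicate 1 were named after their values were seen. They are the transcription factor Foxa1 at 1.45 (SE 0.32, limma adjusted p = 0.0587), the estrogen receptor Esr1 at 1.22 (SE 0.24, limma adjusted p = 0.0451) and the tight junction gene Cldn4 at 1.19 (SE 0.21, limma adjusted p = 0.0304). With all 12 tumors the values were 1.0 (SE 0.46, limma adjusted p = 0.401) for Foxa1, 0.71 (SE 0.46, limma adjusted p = 0.565) for Esr1 and 0.96 (SE 0.27, limma adjusted p = 0.210) for Cldn4. Foxa1 and Esr1 mark the hormone-sensing luminal cells of the gland. The hormone receptors Pgr and Prlr, and Cited1, Prom1 and Areg of the same list, were not called for pooled DOX without that tumor. In DOX/IgG1 against IgG1 with all tumors, Foxa1, Esr1, Pgr and Prlr gave 1.12, 0.58, 0.98 and 0.46. Cited1, Prom1 and Areg gave -0.19, -0.84 and -2.04 there.

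Of 31 other basal and myoepithelial genes, 28 were tested for pooled DOX. Limma called 0 of them in all 6 fits. With DOX over both antibodies, 4 were higher and 0 lower at an unadjusted p below 0.05, against 8.82% and 3.16% of all genes, with a median of 0.414 against 0.116. With DOX beside anti-PD-1, 9 were higher and 1 lower, against 6.30% and 2.33%, with a median of 0.667. In DOX/IgG1 against IgG1, 1 was higher and 0 lower, against 5.03% and 2.70%, with a median of 0.248. For anti-PD-1 against IgG1 it was 2 higher and 0 lower, against 1.75% and 2.85%, with a median of -0.24. Between the DOX groups, of 27 tested 0 were higher and 1 lower, against 1.81% and 2.89%, with a median of 0.058. The interaction had 1 each way, against 2.26% and 2.45%, with a median of 0.262. Leaving out DOX/IgG1 replicate 1 changed these values. Limma then called 7 higher and 0 lower for pooled DOX, against 1.21% and 0.224% of all genes, with a median of 0.503. DOX beside IgG1 had 12 higher at an unadjusted p below 0.05, against 9.10%, with 1 called, against 0.692% called higher, and a median of 0.714. The median turned to -0.452 between the DOX groups, with 0 higher and 5 lower against 2.51% and 5.03%, and to -0.363 for the interaction, with 8 above 0 and 20 below.

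Id4, an inhibitor of helix-loop-helix factors made in basal cells, was at 8.87, 4.29 and 14.0 in the IgG1 tumors, 5.93, 7.23 and 7.18 in the anti-PD-1 tumors, 1.37, 33.5 and 58.8 in the DOX/IgG1 tumors and 28.3, 14.1 and 48.3 in the DOX/anti-PD-1 tumors, in TPM. All DOX tumors but DOX/IgG1 replicate 1 were above every tumor without DOX, the nearest being 14.1 and 14.0 TPM. These nearest tumors change order after scaling by the median of ratios (size factors 1.122 and 1.079). Over both antibodies, DOX gave 1.37 (SE 0.62, limma adjusted p = 0.402), or 2.05 (SE 0.34, limma adjusted p = 0.0231) without that tumor. Tagln, an actin-binding protein of contractile cells, was at 112, 52.9 and 71.0 in the IgG1 tumors, 33.8, 74.6 and 80.3 in the anti-PD-1 tumors, 66.8, 162 and 314 in the DOX/IgG1 tumors and 129, 71.3 and 340.4 in the DOX/anti-PD-1 tumors, in TPM. The highest values were in DOX/anti-PD-1 replicate 3 and DOX/IgG1 replicate 3. Pooled DOX gave 1.15 (SE 0.41, limma adjusted p = 0.292), or 1.42 (SE 0.37, limma adjusted p = 0.0933) without DOX/IgG1 replicate 1. The 2 most abundant genes of the list showed no such spread: Itga6, the laminin receptor subunit, ranged from 339 to 645 TPM with -0.28 (SE 0.18, limma adjusted p = 0.560). Dst, which anchors keratin filaments to hemidesmosomes, ranged from 123 to 292 TPM with 0.17 (SE 0.20, limma adjusted p = 0.770).

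Named after their values were seen, the other basal genes called for pooled DOX without DOX/IgG1 replicate 1 were Acta2, Myh11, Mylk, Oxtr and Lama3. Cnn1 and Actg2, also genes of contractile cells, were not called, with 1.09 (SE 0.31, limma adjusted p = 0.117) and 1.64 (SE 0.55, limma adjusted p = 0.182). Smooth muscle actin, Acta2, was at 1.2 (SE 0.28, limma adjusted p = 0.0693), the myosin Myh11 at 1.31 (SE 0.29, limma adjusted p = 0.0588) and the myosin kinase Mylk at 1.39 (SE 0.28, limma adjusted p = 0.0451). The oxytocin receptor Oxtr was at 1.09 (SE 0.22, limma adjusted p = 0.0474) and the laminin chain Lama3 at 1.16 (SE 0.27, limma adjusted p = 0.0713). With all 12 tumors the log2 fold changes were 0.79 for Acta2, 0.73 for Myh11, 0.94 for Mylk, 0.49 for Oxtr and 1.03 for Lama3. Vascular smooth muscle and some fibroblasts also make Acta2, Myh11, Mylk and Tagln, so these genes do not by themselves mark myoepithelium. The basal keratins Krt5, Krt14 and Krt17 were called neither with nor without that tumor.

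Of 20 junction genes of epithelia, all were tested and limma called 0 in the 6 fits. Over both antibodies, 1 was higher and 3 lower at an unadjusted p below 0.05, against 8.82% and 3.16% of all genes, with a median of -0.082 against 0.116. The medians were -0.249 in DOX/IgG1 against IgG1 (0 higher, 2 lower, against 5.03% and 2.70%), 0.06 with DOX beside anti-PD-1 (1 higher, 1 lower, against 6.30% and 2.33%) and -0.104 in anti-PD-1 against IgG1 (0 either way). They were -0.005 between the DOX groups and 0.13 for the interaction, with 0 either way in both. Without DOX/IgG1 replicate 1 the medians were -0.02 for pooled DOX, -0.211 with DOX beside IgG1 (0 higher, 5 lower, against 9.10% and 3.91% of all genes), -0.043 between the DOX groups and 0.04 for the interaction. Desmoplakin, Dsp, which ties keratin filaments to desmosomes, was at 149.97, 77.6 and 85.2 in the IgG1 tumors, 64.7, 124 and 118 in the anti-PD-1 tumors, 114, 47.1 and 59.7 in the DOX/IgG1 tumors and 46.8, 83.6 and 21.3 in the DOX/anti-PD-1 tumors, in TPM. DOX/anti-PD-1 replicate 3 was far below the rest. The pooled DOX value was -0.84 (SE 0.33, limma adjusted p = 0.333). Envoplakin, Evpl, was between 3.06 and 10.3 TPM with 0.65 (SE 0.26, limma adjusted p = 0.343). The catenins that bind Cdh1 were the most abundant of the list, with 0.25 (SE 0.21, limma adjusted p = 0.677) for Ctnnb1, highest at 816 TPM in DOX/IgG1 replicate 1, and -0.22 (SE 0.15, limma adjusted p = 0.583) for Ctnna1.

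Cells that lose epithelial identity can gain mesenchymal genes, and 8 of these formed another list. With pooled DOX, all 8 were tested and limma called 0. At an unadjusted p below 0.05, 3 were higher and 0 lower, against 8.82% and 3.16% of all genes. The median was 0.408 against 0.116. With DOX beside anti-PD-1, 3 of 7 were higher, against 6.30% of all genes, with a median of 0.626 against 0.108. In DOX/IgG1 against IgG1 it was 1 of 7, against 5.03%, with a median of 0.415 against 0.121. The antibody comparisons and the interaction had 0 either way, with medians of -0.228 without DOX, -0.114 with DOX and -0.065 for the interaction. Without DOX/IgG1 replicate 1, the median was 0.949 against 0.152 with DOX beside IgG1 (4 of 7 higher, against 9.10% of all genes). Between the DOX groups it was -0.645 against -0.073 (1 higher and 4 lower of 7, against 2.51% and 5.03%). For the interaction it was -0.625 against -0.055 (1 each way, against 2.58% and 3.88%). Pooled DOX then had 2 called higher by limma, against 1.21% of all genes, and a median of 0.647. Vimentin, Vim, the filament protein of mesenchymal cells, was at 458, 213 and 359.9 in the IgG1 tumors, 242, 300.3 and 358 in the anti-PD-1 tumors, 439, 1820.5 and 801 in the DOX/IgG1 tumors and 499.9, 482 and 587 in the DOX/anti-PD-1 tumors, in TPM. Each DOX/anti-PD-1 tumor was above each anti-PD-1 tumor, and DOX/IgG1 replicate 2 was the highest. Over both antibodies, DOX gave 1.10 (SE 0.30, limma adjusted p = 0.206), or 1.29 (SE 0.28, limma adjusted p = 0.0577) without DOX/IgG1 replicate 1. Zeb1, a repressor of Cdh1, was at 14.8, 22.9 and 38.9 in the IgG1 tumors, 28.6, 14.2 and 22.7 in the anti-PD-1 tumors, 16.3, 64.8 and 66.5 in the DOX/IgG1 tumors and 32.0, 30.4 and 46.2 in the DOX/anti-PD-1 tumors, in TPM. It was highest in DOX/IgG1 replicates 2 and 3, with 0.76 (SE 0.34, limma adjusted p = 0.386) for pooled DOX, or 1.04 (SE 0.27, limma adjusted p = 0.0928) without DOX/IgG1 replicate 1. Fibronectin, Fn1, was between 268 and 854 TPM with 0.15 (SE 0.26, limma adjusted p = 0.860). Fibroblasts and other stromal cells make Vim, Zeb1 and Fn1 too, and Cdh1 in the same comparison was at -0.18.

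Markers of other cell types in a whole tumor were counted beside the members. With the antibodies pooled, where Krt19 was higher and Epcam lower at an unadjusted p below 0.05, the adipocyte markers had 2 of 9 higher with a median of 0.869, the fibroblast markers 1 of 10 with 0.342 and the immune cell markers 1 of 10 with 0.149. Of all genes 8.82% were higher at that p, with a median of 0.116. The pericyte and vascular smooth muscle markers had 1 of 8 higher with 0.232, the endothelial markers 0 of 8 with 0.104 and the skeletal muscle markers 0 of 10 with -0.001. None of these 6 lists had a gene lower at that p, and limma called none of their genes with all 12 tumors. Without DOX/IgG1 replicate 1, where Krt19 was called, 5 of 9 adipocyte markers were higher at that p with a median of 1.141, 4 of 10 fibroblast markers with 0.533, 2 of 10 immune cell markers with 0.191 and 1 each of the pericyte and endothelial markers, against 11.3% of all genes. Of the endothelial markers 1 was lower, against 3.41%. Limma then called 2 fibroblast genes and 1 immune gene higher and 0 of the other 4 lists, against 1.21%. With DOX beside anti-PD-1, where Krt19 and Krt7 had groups apart before scaling, 6 of 9 adipocyte and 5 of 10 fibroblast markers were higher and 0 lower at that p, with medians of 1.368 and 0.615. Of all genes 6.30% were higher and 2.33% lower there, with a median of 0.108. The part of these markers in the result was not tested.

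The adipocyte markers, led by Cfd, summed to 109, 369.7 and 296 in the IgG1 tumors, 160.2, 123 and 185 in the anti-PD-1 tumors, 199.98, 932 and 157 in the DOX/IgG1 tumors and 897, 321 and 254 in the DOX/anti-PD-1 tumors, in TPM. DOX/IgG1 replicate 2 and DOX/anti-PD-1 replicate 1 stood out, of which only the former was among the highest in Krt19. Fabp4, a fatty acid binding protein, gave 1.42 (SE 0.53, limma adjusted p = 0.326) and resistin, Retn, 1.45 (SE 0.66, limma adjusted p = 0.401) for pooled DOX. Adiponectin, Adipoq, gave 1.03 and Cfd itself 0.81. The fibroblast markers, led by Postn, summed to 1678, 1792 and 2876 in the IgG1 tumors, 1549, 1312 and 1074 in the anti-PD-1 tumors, 865, 2250.2 and 1665 in the DOX/IgG1 tumors and 1622, 2083 and 1996 in the DOX/anti-PD-1 tumors, in TPM, and every one of the 10 was above 0 in every tumor. The sum was lowest in DOX/IgG1 replicate 1. Decorin, Dcn, a fibroblast proteoglycan, was at 95.4, 72.9 and 127 in the IgG1 tumors, 90.9, 98.2 and 93.7 in the anti-PD-1 tumors, 76.8, 619 and 323 in the DOX/IgG1 tumors and 205, 175 and 201 in the DOX/anti-PD-1 tumors, in TPM. It was above every tumor without DOX in all DOX tumors but DOX/IgG1 replicate 1, and gave 1.2 (SE 0.36, limma adjusted p = 0.235), or 1.55 (SE 0.25, limma adjusted p = 0.0208) without it. Lumican, Lum, gave 0.73 (SE 0.37, limma adjusted p = 0.456), or 1.13 (SE 0.21, limma adjusted p = 0.0412) without it. For Col1a1 and Postn the pooled values were -0.11 and -0.49.

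In DOX/IgG1 against IgG1, where Epcam was lower, each DOX/IgG1 tumor was also below each IgG1 tumor in both of these genes. There Col1a1 gave -1.20 (SE 0.35, limma adjusted p = 0.494) and Postn -1.06 (SE 0.31, limma adjusted p = 0.494), or -0.86 and -1.05 without DOX/IgG1 replicate 1. They were the 2 of 10 fibroblast markers lower at an unadjusted p below 0.05, with 0 higher, against 2.70% and 5.03% of all genes. But 6 of the 10 were above 0, among them Dcn at 1.37 and Lum at 0.68, and the median was 0.276 against 0.121 for all genes. Without DOX/IgG1 replicate 1, 3 were higher and 2 lower at that p, against 9.10% and 3.91% of genes. Limma then called 1 higher, Dcn, against 0.692% of genes, and the median was 0.75 against 0.152. With that tumor, Cd3g gave 2.39 (SE 0.65, limma adjusted p = 0.469) and Mcam 0.80 (SE 0.31, limma adjusted p = 0.597), both apart and higher. Cdh5 gave -1.0 (SE 0.41, limma adjusted p = 0.621), apart and lower. Above 0 were 6 of 8 immune cell, 5 of 8 pericyte and vascular smooth muscle, and 2 of 8 endothelial markers. With DOX beside anti-PD-1, Col1a1 and Postn gave 0.97 and 0.071. For the interaction Col1a1 gave 2.18 (SE 0.56, limma adjusted p = 0.993), with an unadjusted p of 0.00163. In anti-PD-1 against IgG1, where all 6 luminal members were below 0, all 10 fibroblast markers were below 0 as well, with a median of -0.27, and Col1a1 gave -1.50 (SE 0.30, limma adjusted p = 0.564). Of the adipocyte markers 8 of 9 were below 0, with a median of -0.676, of the endothelial markers 7 of 8, with -0.432 and 2 lower at an unadjusted p below 0.05 (against 2.85% of all genes), and of the skeletal muscle markers 7 of 10, with -0.56. The immune cell markers had 5 of 8 below 0, with -0.279, but each anti-PD-1 tumor was above each IgG1 tumor in Cd3g, the nearest being 1.65 and 1.56 TPM, and the pericyte and vascular smooth muscle markers 5 of 8, with -0.142. Their part in the results was not tested.

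Skeletal muscle markers, led by Acta1, summed to 156, 35.8 and 600.0 in the IgG1 tumors, 632, 54.6 and 26.1 in the anti-PD-1 tumors, 65.7, 168 and 211 in the DOX/IgG1 tumors and 1009, 0.810 and 184 in the DOX/anti-PD-1 tumors, in TPM. DOX/anti-PD-1 replicate 2, with the highest Krt5, had 2 of 10 above 0, and DOX/anti-PD-1 replicate 1 had the largest sum. Over both antibodies, the log2 fold changes were -0.24 for Acta1, -0.12 for Tnni2, -1.20 for Tnnt3 and -1.09 for Myh1. Of the 10 skeletal muscle markers, 5 were above 0 and 5 below. Endothelial markers, led by Pecam1, summed to between 62.9 and 149 TPM with 8 of 8 above 0 in each tumor. Pecam1 gave 0.047, Cdh5 -0.72 and Cldn5 0.71 for pooled DOX. Pericyte and vascular smooth muscle markers, led by Mcam, summed to between 139 and 277 TPM, the highest being DOX/IgG1 replicate 1, with 8 of 8 above 0. Mcam gave 0.56, Cspg4 0.67 and Rgs5 -0.062. Immune cell markers, led by Lyz2, summed to between 286 and 618 TPM, with 7 to 12 of 12 above 0. Lyz2 gave 0.27, Ptprc -0.060 and Cd3e 0.92. Cd3g of T cells gave 1.73 (SE 0.48, limma adjusted p = 0.206) for pooled DOX, or 1.91 (SE 0.49, limma adjusted p = 0.0915) without DOX/IgG1 replicate 1.

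Skin and salivary gland lie next to mammary glands and share keratins with them, Krt5, Krt14 and Krt17 with epidermis, Krt7 and Krt19 with salivary ducts. The 15 epidermal and hair follicle markers, led by Sbsn, summed to 13.2, 21.4 and 27.6 in the IgG1 tumors, 76.1, 109 and 63.8 in the anti-PD-1 tumors, 21.9, 3.03 and 58.6 in the DOX/IgG1 tumors and 24.4, 21.0 and 27.8 in the DOX/anti-PD-1 tumors, in TPM. Each anti-PD-1 tumor had a larger sum than any of the other 9. Krt71, Krt77, Flg, Flg2 and Dsg1a reached 1 TPM in 3 tumors of the fits with anti-PD-1 alone only through that group. Which markers could be tested there, and their direction, thus follows largely from the filter. No counts or medians of fold changes in the list are given, and no fold changes of Krt71, Krt77, Flg, Flg2 and Dsg1a. Flg2, a gene of cornified skin, was at 0, 0.670 and 0 in the IgG1 tumors, 2.15, 9.14 and 5.21 in the anti-PD-1 tumors, 0, 0.120 and 2.01 in the DOX/IgG1 tumors and 0.260, 0.110 and 0 in the DOX/anti-PD-1 tumors, in TPM. Sbsn, which was above 1 TPM in all 12 tumors, gave 0.19 in anti-PD-1 against IgG1. Krt10 and Krt79 also reached the filter in DOX/IgG1 against IgG1. In anti-PD-1 against IgG1 they gave 2.12 (SE 0.52, limma adjusted p = 0.761) and 1.13 (SE 0.53, limma adjusted p = 0.996), with groups apart and higher. In the anti-PD-1 tumors 11, 15 and 12 of the 15 were above 0, and in IgG1 3, 6 and 6, but DOX/IgG1 replicate 3 also had 11. DOX/IgG1 replicate 1, with the highest Krt14, had 3 of 15 above 0. Their part in the result was not tested.

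The salivary gland markers, of which 11 of 12 were listed and Aqp5 was the most abundant, summed to 450.3, 402 and 427 in the IgG1 tumors, 453, 287 and 573 in the anti-PD-1 tumors, 317, 365 and 402 in the DOX/IgG1 tumors and 389, 373 and 133 in the DOX/anti-PD-1 tumors, in TPM. Aqp5 made up most of the sum, and mammary tumors can make it as well. DOX/IgG1 against IgG1 gave -0.66 (SE 0.21, limma adjusted p = 0.514) for Aqp5, with groups apart and lower. Lpo gave -0.67 (SE 0.78, limma adjusted p = 0.854) there, and these were the 2 of 8 tested markers below 0. In DOX/IgG1 against IgG1, limma called Smr3a and Bpifa2 higher. Both reached the filter only through the 3 DOX/IgG1 tumors, so these calls are not set against the share of all genes. Smr3a was at 16.6, 10.2 and 14.8 TPM in the DOX/IgG1 tumors, at 2.76 TPM in anti-PD-1 replicate 3 and listed at 0 in the other 8. Bpifa2 was at 14.4, 21.3 and 53.7 TPM in the DOX/IgG1 tumors and listed at 0 in the other 9, so no fold is given against IgG1. Amylase, Amy1, was at 5.24, 15 and 5.93 in the IgG1 tumors, 18.1, 4.85 and 7.32 in the anti-PD-1 tumors, 21.1, 42.8 and 34.3 in the DOX/IgG1 tumors and 14.8, 14.6 and 21.8 in the DOX/anti-PD-1 tumors, in TPM. It gave 1.37 (SE 0.35, limma adjusted p = 0.206) for pooled DOX, or 1.44 (SE 0.37, limma adjusted p = 0.0928) without DOX/IgG1 replicate 1. Smr3a and Bpifa2 were present in all 3 DOX/IgG1 tumors, of which 2 were highest and 1 near lowest in Krt19 and Krt7, and their part in the result was not tested.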

How the data were processed

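RNA of whole PyMT tumors was sequenced from total RNA with a stranded kit, 3 tumors in each of 4 groups. The authors trimmed reads with skewer according to their methods, and the submitters' processing notes name STAR, RSEM and mm10. The deposited values are log2(TPM + 1) with decimal commas, which were read as points. TPM is the unit the authors name, and the values alone cannot tell it from FPKM. Symbols and identifiers came from the files, coordinates from GENCODE on GRCm38 and promoters from RefSeq. Depth per tumor is unknown because the deposited TPM hold no read counts, so no counting error is given.

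Members and lists were chosen with earlier results of these data known. Genes that reached 1 TPM in at least 3 tumors of a fit were tested with limma 3.58.1 in R 4.3.3 (lmFit, eBayes with trend) on log2(TPM + 1), two-sided, with Benjamini-Hochberg adjustment over all genes tested. Calls needed an adjusted p below 0.1 and a log2 fold change beyond 1 in size, the limits of the study. Single members were also compared with a two-sided exact permutation test, within antibody for DOX over both. Correlations used two-sided permutation tests with 100000 permutations in Python 3.11.15 with numpy 2.4.6, pandas 2.3.3 and scipy 1.17.1, and figures matplotlib 3.10.9.

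Named genes were all members, and from each other list the 2 most abundant, the 2 with the largest change for DOX over both antibodies and every called gene, with the 5 genes most like Krt14 and Krt8 and keratins at a mean of at least 10 TPM. Others are said to be chosen after their values were seen. The alternatives were a pseudocount of 0.1, no filter, a mean of at least 5 TPM, scaling by the median of ratios, no mean-variance trend, a block for the replicate number, all 12 tumors in 1 fit, each tumor left out in turn, and another set of keratins in the basal share. The limma fits were tested on simulated data. The lists beside the members were other luminal, other basal and myoepithelial, junction and mesenchymal genes, and markers of epidermis and hair follicle, salivary gland, adipocytes, skeletal muscle, fibroblasts, pericytes and vascular smooth muscle, endothelium and immune cells.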

Additional observations from a re-analysis of the deposited data

Results flagged for a closer look

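The test of the difference between both DOX effects, the interaction, picked 1 gene of the lists, the salivary marker Bpifa2. Its log2 fold change was -4.73 (SE 0.66, limma adjusted p = 0.0909), and it was at 14.4, 21.3 and 53.7 TPM in the DOX/IgG1 tumors and listed at 0 in the other 9. The fitted value depends on the added 1, since the other groups are at 0, and is no bound on the ratio. Bpifa2 also reached the filter only through the DOX/IgG1 tumors, and the call was lost with a pseudocount of 0.1, at a mean of at least 5 TPM, with scaling and with the replicate block, so no difference between the DOX effects is concluded from it.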

How the results depend on the processing

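The log2 fold changes of the members kept their direction and their side of the limits under another pseudocount, other filters, no trend, the replicate block and, for pairwise comparisons, 1 fit of all 12 tumors. Scaling by the median of ratios turned 4 values that were near 0: -0.054 for Krt14 in DOX/IgG1 against IgG1, -0.025 for Krt18 in DOX/anti-PD-1 against anti-PD-1, 0.022 for Krt18 between the DOX groups and -0.0058 for Krt5 with DOX over both antibodies. The scaling's shift of all genes is of the size of these changes.

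In DOX/IgG1 against IgG1, the ranges over tumors left out in turn that crossed 0 were -0.15 to 1.02 for Krt7, -0.52 to 0.043 for Krt8, -0.31 to 0.026 for Krt18, -0.81 to 0.13 for Krt5, -0.70 to 0.60 for Krt14 and -0.20 to 0.63 for Krt17. For DOX/anti-PD-1 against anti-PD-1 they were -0.12 to 0.27 for Krt18, -0.43 to 0.059 for Epcam, -0.35 to 0.14 for Cdh1, -0.13 to 0.91 for Krt5, -0.091 to 0.73 for Krt14 and -0.41 to 0.49 for Krt17. In anti-PD-1 against IgG1 they were -0.47 to 0.087 for Krt8, -0.22 to 0.87 for Krt17 and -0.37 to 0.44 for Trp63. Between the DOX groups they were -1.0 to 0.17 for Krt7, -0.42 to 0.0022 for Krt8, -0.23 to 0.14 for Krt18, -0.25 to 0.24 for Cdh1, -0.24 to 0.77 for Krt5, -0.96 to 0.34 for Krt14, -0.049 to 0.47 for Krt17 and -0.54 to 0.40 for Trp63. For DOX over both antibodies they were -0.16 to 0.068 for Krt18, -0.20 to 0.32 for Krt5, -0.095 to 0.48 for Krt14 and -0.012 to 0.39 for Krt17. For the interaction they were -0.20 to 0.97 for Krt7, -0.26 to 0.30 for Krt8, -0.43 to 0.85 for Krt19, -0.16 to 0.33 for Cdh1, -0.21 to 1.09 for Krt14, -0.72 to 0.37 for Krt17 and -0.59 to 0.38 for Trp63. Krt19 for DOX over both antibodies was called only without DOX/IgG1 replicate 1. The cause was not tested.

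The number of genes called in DOX/IgG1 against IgG1 was 5, and it was 3 at a mean of at least 5 TPM, 13 with no trend and 0 to 122 over tumors left out. With DOX beside anti-PD-1 it was 0, 3 with no trend and 0 to 4 over tumors left out. In anti-PD-1 against IgG1 it was 0, 1 with no trend and 0 to 4 over tumors left out. Between the DOX groups it was 0, 3 with scaling, 3 with no trend, 2 in 1 fit of all 12 tumors and 0 to 4 over tumors left out. For DOX over both antibodies it was 3, 13 at a mean of at least 5 TPM, 14 with scaling, 0 with no trend and 0 to 212 over tumors left out. For the interaction it was 1, 0 with a pseudocount of 0.1, 3 with no filter, 0 at a mean of at least 5 TPM, 0 with scaling, 3 with no trend and 0 to 1 over tumors left out. The cause was not tested.

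Tumors of the same replicate number had correlations of -0.096 to 0.134 over 18 pairs of deviations, and those of other numbers -0.19 to 0.113 over 36 pairs. Such weak and overlapping values cannot show whether the numbers pair the samples, and no pairing was used in the main fits. With the replicate block the number of genes called was 2 in DOX/IgG1 against IgG1, 0 in DOX/anti-PD-1 against anti-PD-1, 0 in anti-PD-1 against IgG1, 0 between the DOX groups, 1 for DOX over both antibodies and 0 for the interaction. Limma gave all these counts, and those at an unadjusted p below 0.05 stand with the results.

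With Krt5 and Krt14 over Krt5, Krt14, Krt8 and Krt18, the basal share was 6.57% in IgG1 replicate 1 and 5.58% in IgG1 replicate 3, a move larger than the SD of their group. The other 10 tumors moved by less than the SD of their own groups, which is wide with DOX. The group means without DOX changed order, from 3.61% with IgG1 and 3.86% with anti-PD-1 to 5.20% and 4.32%. Depth is unknown, so low values such as those of Krt17 carry a counting error that cannot be given. With 3 tumors a group, a single tumor turned the direction of at least 3 members in each comparison, and the DOX groups differ from the others in starting size and antibody doses.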

Other observations

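Chosen after their values were seen, the hair keratins Krt25 and Krt31 were above 0 only in anti-PD-1 replicates 1 and 2. Krt71, a keratin of the inner root sheath, was at 0, 0 and 0 in the IgG1 tumors, 15.6, 9.15 and 1.03 in the anti-PD-1 tumors, 0, 0 and 0.460 in the DOX/IgG1 tumors and 0, 0.360 and 0 in the DOX/anti-PD-1 tumors, in TPM. Krt10, a keratin of differentiated epidermis, was at 0, 2.01 and 1.0 in the IgG1 tumors, 3.88, 9.59 and 8.60 in the anti-PD-1 tumors, 0, 0 and 4.81 in the DOX/IgG1 tumors and 7.42, 3.19 and 0.810 in the DOX/anti-PD-1 tumors, in TPM, and was listed in all 3 anti-PD-1 tumors and in 6 of the other 9.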
